A study of Mus musculus with 22 samples.

Results

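The genes of cholesterol and fatty acid synthesis were followed in 22 mouse RNA-seq libraries. All came from bladder organoids, which are epithelial cells cultured as small bodies in a gel. The list held 39 genes of the 24421 in the count files: 18 enzymes of sterol synthesis, 4 genes of sterol sensing and transport (Insig1, Srebf1, Srebf2 and Stard4) and 17 genes that make, elongate, desaturate, activate or esterify fatty acids. All 39 were chosen by name with earlier results of these data known, and all 39 passed the filter on low counts in every comparison. Primary bladder urothelial organoids gave 18 libraries, with 3 Arid1a knockout (KO) and 3 Arid1a wild-type (WT) samples each for total RNA, for the polysome fraction and for the subpolysome fraction of a sucrose gradient. Isogenic bladder cancer organoids gave 4 total RNA libraries, 2 labelled KO and 2 labelled WT. Arid1a codes for a DNA-binding subunit of BAF, the mammalian SWI/SNF remodeller of chromatin. How Arid1a was inactivated, the mouse strain, the age of the animals and the number of clones behind each culture are not given in the labels, and the genotype is the only difference the labels record between KO and WT.

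Cholesterol is built from acetyl-CoA through mevalonate, farnesyl diphosphate, squalene and lanosterol, and fatty acids are built from the same acetyl-CoA through malonyl-CoA. Both routes are transcribed under the SREBP factors, encoded by Srebf1, which is linked mainly to fatty acid genes, and Srebf2, which is linked mainly to sterol genes. Insig1 holds SREBP in the endoplasmic reticulum when sterols are plentiful, and the factors are cut and released when sterols fall. In epithelia such as the urothelium both routes supply lipid for new membrane.

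Total counts lay between 39245248 and 76594655 per library, so that a gene at 1 CPM (1 count in every 1000000 of the library) rested on at least 39.2 counts. Single-library values below are CPM scaled to that library's total, unless called scaled CPM. Overlap between KO and WT and between cancer and primary libraries is judged on CPM of library totals. The fits further adjust those totals by TMM factors. Arid1a had 93.2, 93.8 and 106 CPM in KO total RNA, against 139, 156 and 141 CPM in WT total RNA (log2 -0.60, SE 0.06, adjusted p = 5.68e-06). In polysomes it had 28.7, 23.0 and 15.3 CPM in KO and 40.4, 27.6 and 22.9 CPM in WT, which overlap (log2 -0.48, adjusted p = 0.0817). In subpolysomes it had 47.8, 43.0 and 39.2 CPM in KO and 42.9, 39.9 and 33.7 CPM in WT, so the fraction labelled KO was not lower (log2 0.19, adjusted p = 0.276). In the cancer organoids it had 201 and 64.1 CPM in the libraries labelled KO and 79.2 and 228 CPM in those labelled WT. KO and WT did not overlap for Arid1a in total RNA, and overlapped in both fractions. The fractions are called KO and WT by their labels, and the cancer libraries, of which 2 go against their labels, are named as labelled. The primary cultures carried urothelial markers in both genotypes: the 8 basal markers (Krt5, Krt14, Trp63 and others) summed to 16418 to 17807 CPM in KO total RNA and to 14589 to 17255 CPM in WT total RNA, and all 12 luminal markers were detected. The labels do not tell whether replicates are separate animals or cultures, and p-values therefore reflect library-to-library spread, possibly technical.

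In total RNA the route to cholesterol was higher in KO organoids along most of its length. Of the 18 sterol enzymes, 13 rose and 1, Hsd17b7, fell (edgeR quasi-likelihood test, adjusted p under 0.05), with a median log2 fold change of 0.46 over the 18. All 4 genes of sterol sensing and transport rose as well. Of the 17 fatty acid genes, 10 rose and 1, Acsl4, fell, with a median of 0.31. These are 27 higher and 2 lower of 39, in a comparison in which 53.2% of the 13198 genes tested passed, 27% higher and 26.3% lower, with a median over all genes of 0.0026. The counts of the 6 libraries did not overlap between genotypes for 32 of the 39, 30 of them higher in KO, beside 61.1% of all genes. Summed, the sterol enzymes took 1915 ± 52.3 CPM in KO and 1444 ± 147 CPM in WT, and the fatty acid genes 3388 ± 108 CPM in KO and 2774 ± 134 CPM in WT (mean ± SD, n = 3 each).

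**Figure D1:**
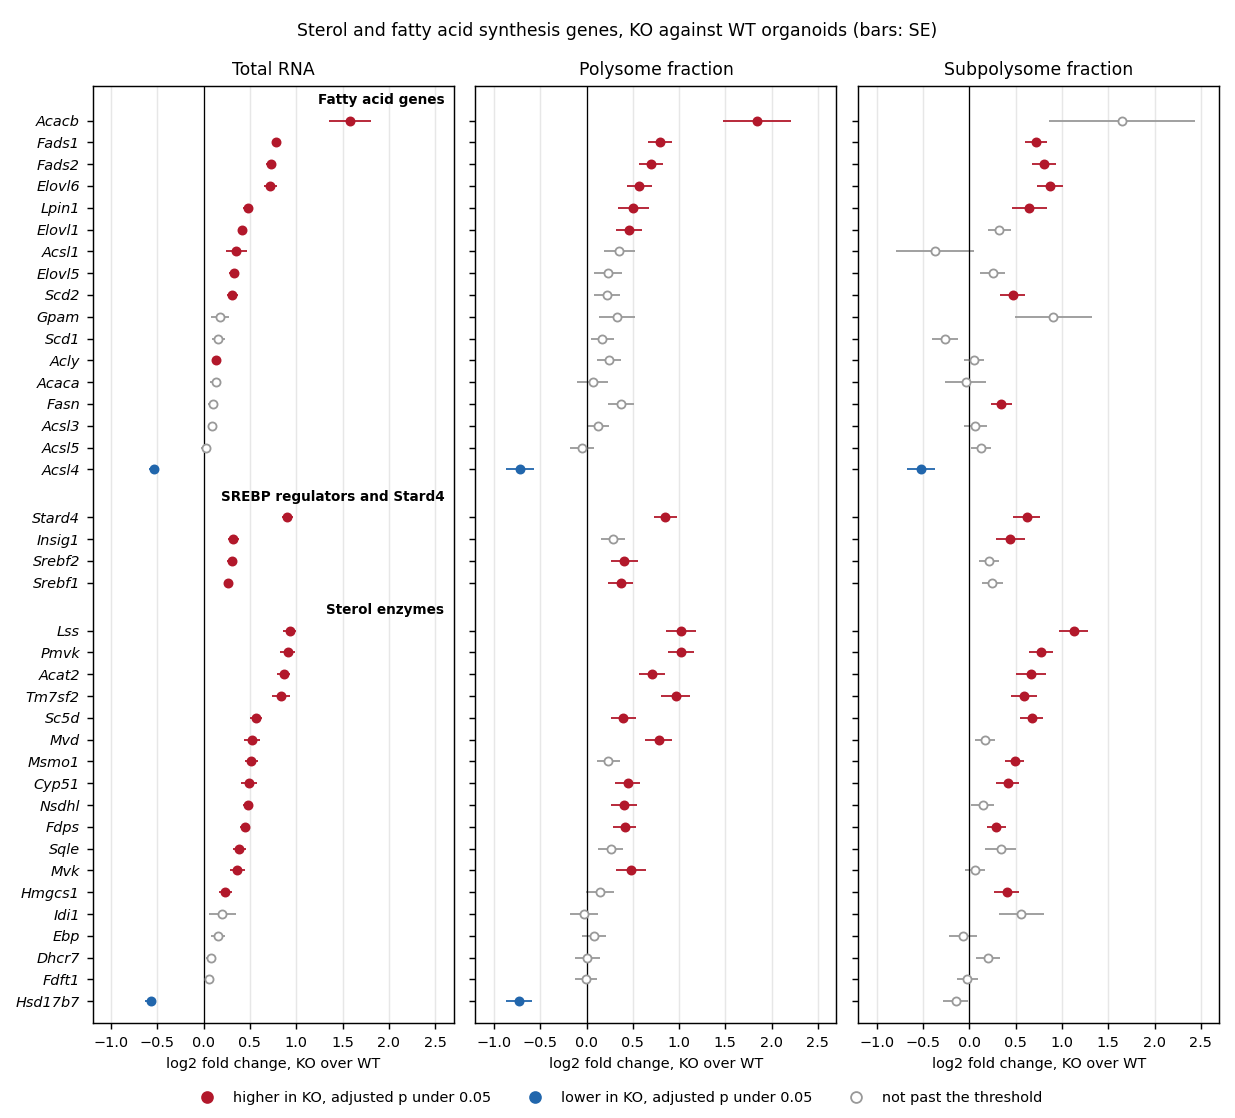
log2 fold change of KO over WT for the 39 genes (points, with SE as bars) in total RNA, the polysome fraction and the subpolysome fraction, 3 libraries per genotype each, grouped into sterol enzymes, regulators with Stard4, and fatty acid genes. Filled red points passed as higher and filled blue points as lower; Hsd17b7 and Acsl4 are the 2 genes lower in total RNA.

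The sterol enzymes with the smallest p-values were Lss, Acat2, Pmvk and Hsd17b7. Lss, lanosterol synthase, which closes squalene epoxide into the first sterol ring, had 85.5, 82.7 and 88.0 CPM in KO total RNA and 48.3, 39.3 and 44.8 CPM in WT total RNA. Every KO library was above every WT library, and the fit gave a 1.90-fold higher level in KO (log2 0.93, SE 0.07, adjusted p = 4.69e-07). Acat2, the thiolase that joins the first acetyl units, had 72.3, 66.2 and 72.0 CPM in KO and 42.6, 35.5 and 35.8 CPM in WT (log2 0.86, SE 0.07, adjusted p = 1.36e-06). Its close paralog Acat3 stayed at or under 0.271 CPM in every library of the series. Pmvk, phosphomevalonate kinase, had 60.6, 57.2 and 54.5 CPM in KO and 33.9, 27.1 and 29.4 CPM in WT (log2 0.91, SE 0.08, adjusted p = 1.97e-06). For both genes the KO libraries lay wholly above the WT libraries.

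Hsd17b7 ran the other way within the same pathway. This reductase, which acts at the removal of the methyl groups of lanosterol, had 48.6, 49.7 and 47.4 CPM in KO total RNA and 77.2, 67.2 and 68.7 CPM in WT total RNA, and the groups did not overlap (log2 -0.57, SE 0.06, adjusted p = 7.61e-06). Its partners in that step rose: Msmo1, the methylsterol oxidase, by log2 0.52, and Nsdhl, the decarboxylating dehydrogenase, by log2 0.48. Cyp51, the lanosterol demethylase just before them, rose by log2 0.49, and Tm7sf2, a sterol reductase, by log2 0.84. Sc5d, which desaturates lathosterol, rose by log2 0.56. Upstream, in the mevalonate and farnesyl steps, Mvd rose by log2 0.53, Fdps by log2 0.45, Mvk by log2 0.36 and Hmgcs1 by log2 0.23. Sqle, squalene epoxidase, rose by log2 0.39. The 4 enzymes that did not pass were Idi1, Fdft1, Ebp and Dhcr7, with log2 fold changes from 0.05 to 0.20 and adjusted p-values from 0.119 to 0.331.

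The regulators moved less than the enzymes with the largest changes. Srebf2 had 294, 288 and 299.7 CPM in KO total RNA and 247.5, 233 and 224 CPM in WT total RNA (log2 0.30, SE 0.04, adjusted p = 0.000145). Srebf1 had 108, 107 and 111 CPM in KO and 94.9, 87.5 and 85.0 CPM in WT (log2 0.26, SE 0.05, adjusted p = 0.000669). Insig1 had 43.7, 48.3 and 49.1 CPM in KO and 38.4, 37.4 and 35.6 CPM in WT (log2 0.32, SE 0.06, adjusted p = 0.000611). In all 3 the KO libraries were above the WT libraries. Stard4, a soluble carrier that moves cholesterol between membranes, changed more: 67.2, 62.3 and 65.2 CPM in KO and 37.1, 33.7 and 31.6 CPM in WT, 1.87-fold higher in KO (log2 0.90, SE 0.06, adjusted p = 3.35e-07).

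Among the fatty acid genes, the smallest p-values belonged to the desaturases of polyunsaturated fatty acids, the elongase of palmitate and Acsl4. Fads1 had 195, 198 and 211 CPM in KO total RNA and 112, 122 and 112 CPM in WT total RNA (log2 0.78, SE 0.05, adjusted p = 1.11e-07). Fads2 had 132, 125 and 139.6 CPM in KO and 76.8, 82.5 and 77.4 CPM in WT (log2 0.72, SE 0.05, adjusted p = 2.81e-07). Both are neighbours on chromosome 19, and in neither did the genotypes overlap. Elovl6 had 135, 119.6 and 133 CPM in KO and 85.0, 73.7 and 72.7 CPM in WT (log2 0.72, SE 0.07, adjusted p = 3.16e-06), again without overlap. Acsl4, the acyl-CoA synthetase that favours arachidonic acid, had 71.4, 68.1 and 65.4 CPM in KO and 99.7, 91.6 and 102 CPM in WT. Every KO library was below every WT library, a level 1.45-fold lower in KO (log2 -0.54, SE 0.05, adjusted p = 7.19e-06).

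Acacb, the acetyl-CoA carboxylase of the mitochondrial surface, had the largest fold change of all 39 at the lowest level, with 2.23, 3.26 and 3.35 CPM in KO and 0.799, 1.19 and 0.918 CPM in WT (log2 1.58, SE 0.22, adjusted p = 0.000106). Lpin1, a phosphatidate phosphatase, rose by log2 0.47, the elongases Elovl1 and Elovl5 by log2 0.41 and 0.32, the synthetase Acsl1 by log2 0.35, the desaturase Scd2 by log2 0.31 and Acly, which makes cytosolic acetyl-CoA from citrate, by log2 0.13. The core of palmitate synthesis did not pass: Acaca, the carboxylase that makes malonyl-CoA for synthesis, and Fasn, fatty acid synthase, gave log2 0.13 and 0.10 (adjusted p = 0.0761 and 0.120). Scd1, Acsl3, Acsl5 and Gpam did not pass either, and the 6 uncalled genes ranged from 0.02 to 0.18 on the log2 scale. In the fit on all 18 primary libraries together, 19 of the 39 passed in place of 29. Calls over all genes fell as well, to 1770 higher and 2014 lower of 13787 genes, from 3557 and 3468 of 13198. Of the 39, Insig1, Srebf1, Srebf2, Hmgcs1, Mvk, Sqle, Acly, Scd2, Elovl5 and Acsl1 were the 10 that lost the call with their direction kept.

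Per kilobase of exon, Scd2 was the most abundant of the 39 at 255 CPM per kb in KO total RNA and 203 CPM per kb in WT total RNA. Hmgcs1 and Acly followed at 62.0 and 61.3 CPM per kb in KO and at 52.0 and 55.1 CPM per kb in WT. Acacb was lowest, at 0.306 CPM per kb in KO and 0.101 CPM per kb in WT. Fads1 stood in place 5 in KO and in place 15 in WT, and Acsl5 in place 13 in KO and in place 5 in WT. Srebf2 stood above Srebf1, with 40.9 against 19.3 CPM per kb in KO and 32.7 against 15.8 CPM per kb in WT. The summed exon length of the annotation served for all libraries, since the isoforms used were not measured.

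**Figure D2:**
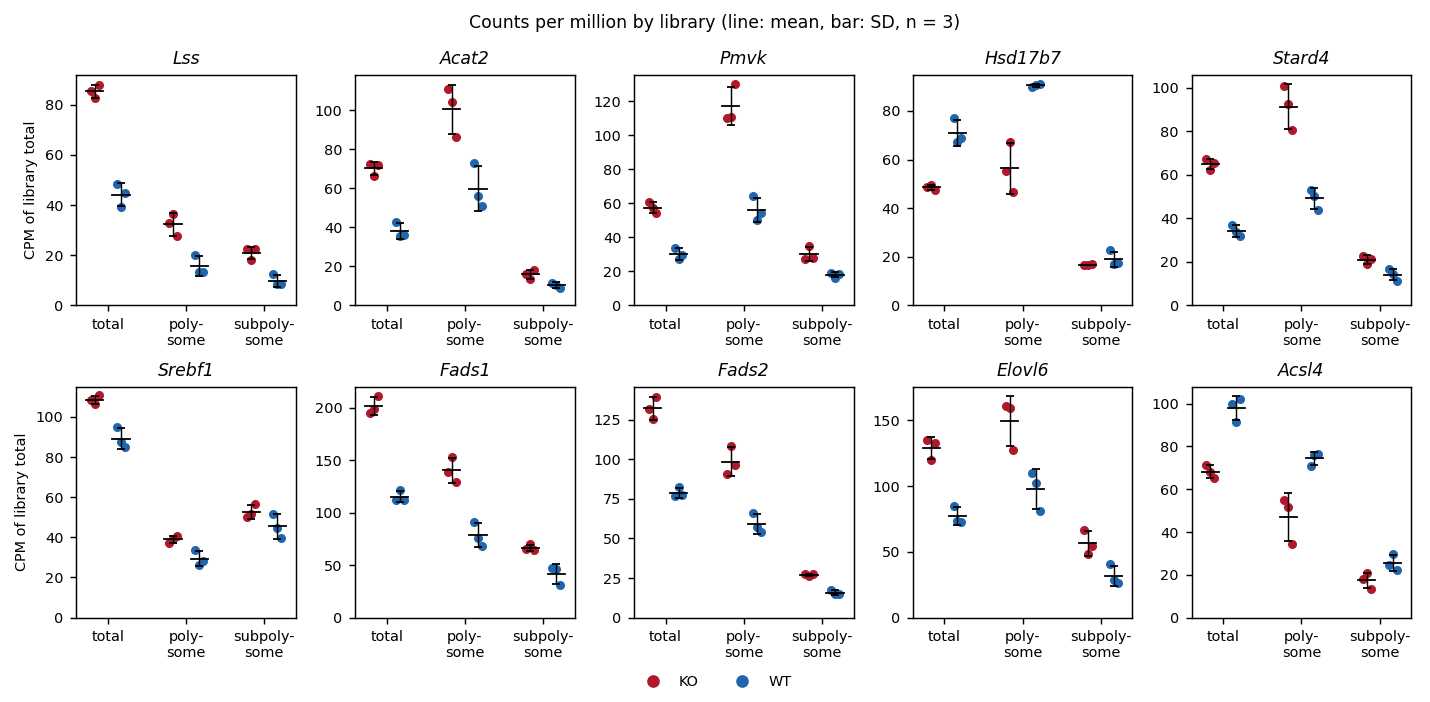
CPM of each library's own total for 10 genes (y axis, from 0) in total RNA, polysomes and subpolysomes, with KO in red left of WT in blue; lines are means and bars SD over 3 libraries. In total RNA the KO points lie above the WT points for 8 genes and below them for Hsd17b7 and Acsl4.

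Promoters of 5 of these genes are printed to show a pair of motifs that textbooks tie to sterol control: the sterol regulatory element that SREBP binds, searched as TCACNCCAC, and the CCAAT box that binds its partner NF-Y, searched as CCAAT, each on both strands. The sequences are RefSeq, build GRCm38.p6, the 160 bases before the annotated start, 5′ to 3′ on the strand of the gene, with matches in capitals. Hmgcs1 is shown because it holds both patterns, Lss as the sterol enzyme with the smallest p, Sc5d as one that passed in all 3 kinds of RNA, Hsd17b7 as the sterol enzyme that fell and Fasn as a fatty acid gene that did not pass in total RNA. They lie at chr13:119690191-119690350 (plus strand), chr10:76531445-76531604 (plus), chr9:42264301-42264460 (minus), chr1:169969206-169969365 (minus) and chr11:120824548-120824707 (minus). The start is that of the promoter entry, which can differ from the 5′ end of the RefSeq gene. The Fasn window lies wholly inside its gene (5′ end at 120825166), and the Hsd17b7 window partly so (5′ end at 169969242).
Hmgcs1: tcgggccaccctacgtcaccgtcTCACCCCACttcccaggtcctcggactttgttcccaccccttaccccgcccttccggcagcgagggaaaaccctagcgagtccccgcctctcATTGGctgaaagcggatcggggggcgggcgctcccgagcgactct
Lss: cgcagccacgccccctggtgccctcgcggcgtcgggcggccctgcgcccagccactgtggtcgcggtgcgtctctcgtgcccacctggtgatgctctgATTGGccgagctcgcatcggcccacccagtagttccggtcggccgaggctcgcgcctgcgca
Sc5d: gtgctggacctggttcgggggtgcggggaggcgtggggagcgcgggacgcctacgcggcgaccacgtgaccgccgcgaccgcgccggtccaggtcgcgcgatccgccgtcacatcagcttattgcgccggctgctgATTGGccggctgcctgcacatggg
Hsd17b7: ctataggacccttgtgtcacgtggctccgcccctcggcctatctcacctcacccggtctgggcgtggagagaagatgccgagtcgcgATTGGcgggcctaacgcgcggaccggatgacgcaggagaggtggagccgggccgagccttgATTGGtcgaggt
Fasn: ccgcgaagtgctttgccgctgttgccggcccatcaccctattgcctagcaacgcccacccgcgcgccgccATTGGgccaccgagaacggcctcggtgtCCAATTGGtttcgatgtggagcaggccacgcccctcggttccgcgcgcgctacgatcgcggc
The capitals in Hmgcs1 mark TCACCCCAC and, nearer the start, ATTGG, which is CCAAT on the other strand; those in the other 4 mark CCAAT boxes only. In Fasn 2 of them overlap on opposite strands.

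Promoter entries matched 32 of the 39 genes, and windows from 250 bases before to 50 after the start were searched. The CCAAT box stood in 26 of the 32 (81.2%), against 41.1% of 27025 promoters of the same length. By group it stood in 14 of 15 sterol enzymes (93.3%), in Insig1, Srebf1 and Srebf2, and in 9 of 14 fatty acid genes (64.3%). The sterol regulatory element stood in 2 of 32 (6.25%), Hmgcs1 and Acsl1, against 1.44% of all promoters. Hsd17b7 and Fasn hold CCAAT boxes as Lss does. Entries for Fdps, Fdft1, Sqle, Stard4, Scd1, Scd2 and Fads1 were not used here.

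In total RNA, the following lists of neighbouring pathways held more lower than higher calls, and all but the first held lower calls only. The machinery that carries and cuts SREBP had 1 of 8 genes higher, Erlin1 (log2 0.32), and 5 lower, among them Erlin2 (log2 -0.26) and Mbtps2, a protease that releases SREBP (log2 -0.23). Genes of sterol uptake, storage and efflux had 0 of 13 higher and 7 lower, led by Abcg1, a sterol exporter (log2 -1.83), and Soat1, which esterifies cholesterol (log2 -0.55). Of 10 genes of the isoprenoid branch, 0 rose and 3 fell, led by Icmt (log2 -0.26) and Coq2 (log2 -0.21). Of 10 other elongases, desaturases and their partners, 0 rose and 5 fell, led by Scd3 (log2 -2.60) and Fads3 (log2 -1.23). These sit beside a background of 27% higher and 26.3% lower.

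Lists for the supply and use of fatty acids are given beside the same shares of all genes, 27% higher and 26.3% lower. Of 7 genes that supply cytosolic acetyl-CoA and NADPH, 4 rose, led by Acss2, which makes acetyl-CoA from acetate (log2 0.83), and Idh1 (log2 0.25), and 1 fell, Me1 (log2 -0.14). Of 13 glycerolipid genes, 7 rose, led by Cept1 (log2 0.68) and Dgat2, which makes triglyceride (log2 0.58), and 3 fell, led by Agpat4 (log2 -0.82) and Lpin2 (log2 -0.18). Of 15 genes of fatty acid oxidation, 9 rose, led by Ppara (log2 1.22) and Cpt1a, the gate of mitochondrial oxidation (log2 0.91), and 1 fell, Acads (log2 -0.15). Of 8 genes of lipid droplets and uptake, 4 rose, led by Hilpda (log2 0.79) and Slc27a4 (log2 0.77), and 2 fell, Plin2 (log2 -0.64) and Slc27a1 (log2 -0.35).

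Cell state markers also differed in total RNA, the basal ones in both directions. Of 8 basal urothelial markers, 3 were higher in KO (Trp63, Krt15 and Krt5) and 2 lower (Cd44 and Krt14), with a median log2 of 0.05. All 10 proliferation markers were higher in KO total RNA (median log2 1.68), summing to 399.5 to 557 CPM in KO and 173 to 229.8 CPM in WT. Of 12 luminal urothelial markers, 10 were higher and 1, Krt20, was lower, and their sum was 3186 to 3501 CPM in KO and 2281 to 2329 CPM in WT. Their part in the lipid gene result was not tested, and in bulk RNA fewer cells of a type and less RNA per cell cannot be told apart. Among adipocyte markers the 2 tested were Fabp4, which rose (log2 1.95), and Plin4, which did not pass, and Adipoq and Plin1 were at 0 counts in both genotypes; the 8 summed to 148 to 172 CPM in KO and 33.9 to 45.4 CPM in WT. Sebocyte markers, 2 of 3 higher and 1 lower, summed to 128 to 139 CPM in KO and 152 to 155 CPM in WT, with Awat1 and Elovl3 at 0 counts in both. Immune markers summed to 104 to 107 CPM in KO and 67.8 to 83.8 CPM in WT (Cd68 and Cd14 higher), smooth muscle markers to 20.3 to 21.97 CPM in KO and 5.96 to 6.74 CPM in WT (Acta2 higher), and fibroblast markers to 2.00 to 2.35 CPM in KO and 3.54 to 4.41 CPM in WT (Col1a1 lower). Endothelial markers stayed at or under 0.858 CPM in KO and 1.14 CPM in WT, with 0 called. Of these lists, Col1a2, Lum, Ptprc, Adgre1, Kdr and Emcn were at 0 counts in both genotypes.

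In the polysome fraction, which holds mRNAs carrying several ribosomes, 19 of the 39 genes were higher in KO and 2 lower, beside 28.8% of 13066 genes called, 14.9% higher and 13.8% lower. All 19 were also higher in total RNA. The fit did not pair libraries by replicate number, and with that number as a block none of the called genes lost its call. By group, 10 of 18 sterol enzymes rose and Hsd17b7 fell, 3 of 4 of the regulators and Stard4 rose, and 6 of 17 fatty acid genes rose and Acsl4 fell. KO and WT libraries were fully apart for 21 of 39 genes, 19 of them higher, beside 40% of all genes. The median over the 39 was 0.37, against 0.0063 over all genes. Without WT polysome replicate 2 the count of called genes among the 39 fell to 12, 10 higher and 2 lower. Over all genes the calls fell to 1510 higher and 1332 lower of 13236, from 1950 and 1807 of 13066.

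Lss had 32.7, 36.6 and 27.6 CPM in KO polysomes and 20.1, 13.2 and 13.3 CPM in WT polysomes, without overlap (log2 1.02, SE 0.16, adjusted p = 0.000131). Pmvk rose by log2 1.02, Tm7sf2 by log2 0.96, Mvd by log2 0.78 and Acat2 by log2 0.71. Mvk, Cyp51, Fdps, Nsdhl and Sc5d rose by log2 0.40 to 0.48. Stard4 had 101, 92.5 and 80.6 CPM in KO and 53.0, 50.4 and 43.9 CPM in WT (log2 0.85, SE 0.13, adjusted p = 6.08e-05). Hsd17b7 had 55.3, 67.3 and 46.5 CPM in KO and 89.7, 90.9 and 91.0 CPM in WT, every KO library below every WT library (log2 -0.73, SE 0.14, adjusted p = 0.000585).

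Srebf2 and Srebf1 also rose in polysomes, by log2 0.41 and 0.37 (adjusted p = 0.0458 and 0.0493). Insig1 did not pass on its own 6 libraries (log2 0.29, adjusted p = 0.112) and passed with the replicate number as a block (log2 0.29, adjusted p = 0.0420), as did Fasn (log2 0.37, adjusted p = 0.0629, and 0.00756 with the block). Of the fatty acid genes, Acacb rose by log2 1.84, Fads1 by 0.79, Fads2 by 0.69, Elovl6 by 0.57, Lpin1 by 0.51 and Elovl1 by 0.46 on the log2 scale. Acsl4 had 55.1, 51.7 and 34.2 CPM in KO polysomes and 70.8, 76.1 and 76.2 CPM in WT polysomes (log2 -0.71, SE 0.15, adjusted p = 0.00171). The 18 genes that did not pass ranged from -0.05 to 0.37 on the log2 scale.

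In the subpolysome fraction, which holds mRNAs with few or no ribosomes, 17 genes were higher in KO and 1 lower, beside 22% of 12645 genes called, 11% in each direction. KO and WT libraries were fully apart for 17 of 39 genes, 15 of them higher, beside 33.8% of all genes. The 9 sterol enzymes that rose were Lss (log2 1.12), Pmvk (0.77), Sc5d (0.67), Acat2 (0.67), Tm7sf2 (0.58), Msmo1 (0.49), Cyp51 (0.41), Hmgcs1 (0.40) and Fdps (0.29). Hsd17b7 had 16.6, 16.6 and 16.8 CPM in KO and 22.6, 16.9 and 17.4 CPM in WT, so every KO library was lower by library totals. It did not pass (log2 -0.15, adjusted p = 0.498). With the TMM factors of the gradient fit the genotypes overlapped, at 23.1, 21.6 and 23.2 scaled CPM in KO and 27.9, 22.8 and 24.8 in WT. Stard4 rose by log2 0.62 and Insig1 by log2 0.44, while Srebf1 and Srebf2 gave log2 0.25 and 0.21 (adjusted p = 0.120 and 0.162). Elovl6 (log2 0.87), Fads2 (0.80), Fads1 (0.72), Lpin1 (0.65), Scd2 (0.47) and Fasn (0.35) rose, and Acsl4 fell (log2 -0.53). The 21 genes that did not pass ranged from -0.37 to 1.65 on the log2 scale. The highest was Acacb, at 0.331 to 2.12 CPM in KO and 0.212 to 0.420 CPM in WT. Without WT subpolysome replicate 2, calls over all genes fell to 1000 higher and 993 lower of 12986, from 1391 in each direction of 12645. For the 39 the count fell to 10 higher and 0 lower, Acsl4 among the genes lost. With library totals alone the count for the 39 was 11 higher and 1 lower, with Hmgcs1, Fdps, Cyp51, Insig1, Fasn and Scd2 losing the call. Calls over all genes fell as well, to 1102 higher and 1282 lower of 12645, with a median log2 of -0.021 in place of 0.0056. These libraries are KO and WT by label, Arid1a not being lower in those labelled KO.

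Across total RNA, polysomes and subpolysomes, 12 genes were higher in KO in all 3: the sterol enzymes Pmvk, Fdps, Lss, Cyp51, Tm7sf2, Sc5d and Acat2, the carrier Stard4, and the fatty acid genes Elovl6, Fads1, Fads2 and Lpin1. Acsl4 was lower in all 3. The 9 genes called in 0 of 3 were Idi1, Fdft1, Ebp, Dhcr7, Acaca, Scd1, Acsl3, Acsl5 and Gpam, and 0 genes were called in opposite directions. The same counts over all genes were not made, so these have no background to be read against. Taken singly, 27% of all genes were higher in total RNA, 14.9% in polysomes and 11% in subpolysomes. Sqle, Acly, Elovl5 and Acsl1 passed in total RNA and in neither fraction, a difference between kinds of RNA that this count does not test.

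Of the differences between kinds of RNA, those of polysomes from total RNA and from subpolysomes were tested, and that of subpolysomes from total RNA was not. The genotype effect on the polysome to total RNA ratio passed for 0 of 39 genes and for 0% of 13507 genes (edgeR; 0 of the 39 and 263 of all genes at an unadjusted p under 0.05, 0 genes by DESeq2). The log2 effects of the 39 ranged from -0.25 to 0.29. The effect on the polysome to subpolysome ratio also passed for 0 of 39, beside 0.00747% of 13392 genes, with effects from -0.58 to 0.74. At an unadjusted p under 0.05 it held 4 of the 39 and 758 of all genes, and DESeq2 called 12 genes but 0 of the 39. The 4 were Mvd (log2 0.63, SE 0.19, adjusted p = 0.773), Hsd17b7 (log2 -0.57, SE 0.18, adjusted p = 0.773), Idi1 (log2 -0.58, SE 0.24, adjusted p = 0.877) and Scd1 (log2 0.45, SE 0.21, adjusted p = 0.881). Insig1 gave log2 -0.14 and -0.01, Srebf1 0.14 and 0.13, and Srebf2 0.21 and 0.13 in the ratio to subpolysomes and in the ratio to total RNA, with adjusted p-values from 0.942 upward.

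The 39 mRNAs passed in both directions between polysomes and subpolysomes. With libraries scaled by TMM factors, so that a ratio is relative to the typical mRNA, 19 genes were higher in polysomes than in subpolysomes and 6 lower in KO organoids (61.6% of all genes called, 31.7% higher and 29.9% lower). In WT organoids 19 were higher and 9 lower (63.7%, 32.8% higher and 30.9% lower). In both genotypes 18 were higher, 5 were lower, 9 passed in neither and 0 passed in opposite directions, and the same counts over all genes were not made. The comparisons were made in 1 fit but share no library. Polysome and subpolysome libraries were fully apart for 26 of 39 genes in KO, 19 of them higher, beside 64.8% of all genes. In WT they were fully apart for 26, 18 of them higher, beside 68.7%. In both genotypes the share of the 39 fully apart is near that of all genes. The sterol enzymes had a median log2 ratio of 0.54 in KO and 0.47 in WT. They spanned -2.25 to 2.24 in KO and -2.88 to 2.82 in WT. Over all genes the quartiles of the ratio were -0.73 and 0.69 in KO and -0.78 and 0.72 in WT. The fatty acid genes had medians of 0.38 in KO and 0.35 in WT.

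**Figure D3:**
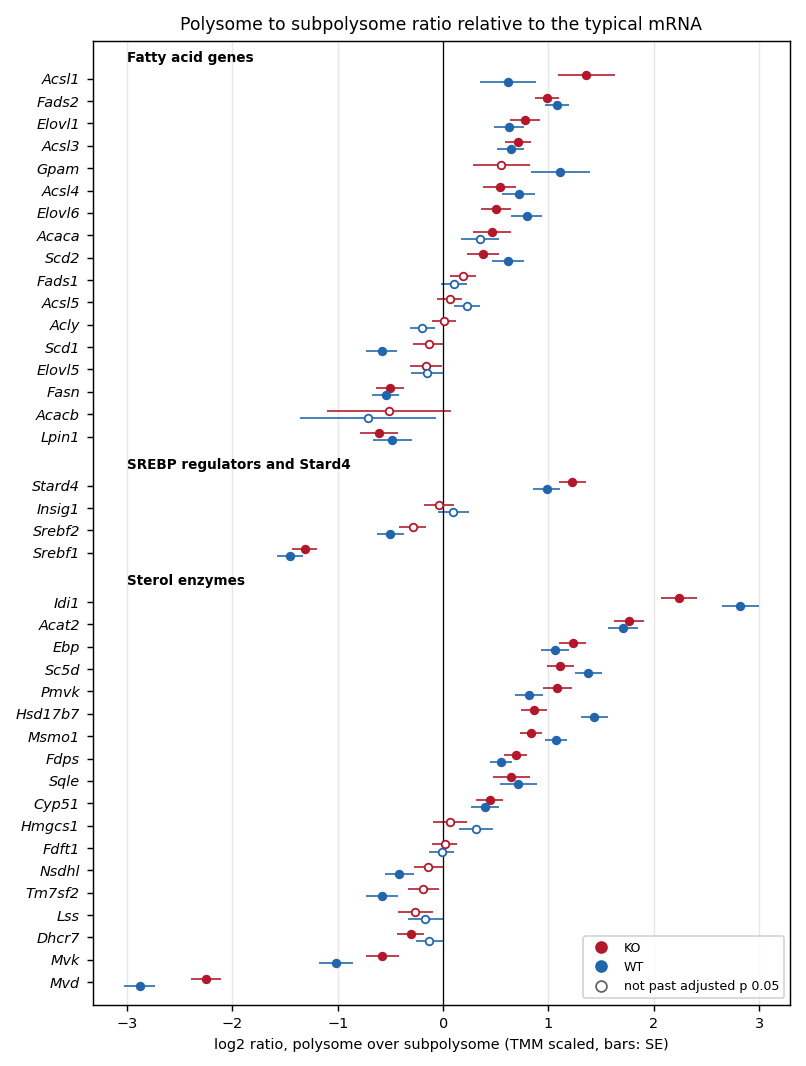
log2 ratio of polysome over subpolysome for the 39 genes in KO (red) and WT (blue) organoids, with SE as bars, relative to the typical mRNA after TMM scaling; open points did not pass. Idi1 and Acat2 lie farthest right and Mvd farthest left in both genotypes. Called genes and the regulators Insig1, Srebf1 and Srebf2 were followed with library totals alone. Of these, Mvk (KO), Fasn, Lpin1 and Srebf2 (both), Dhcr7 and Insig1 (KO) and Tm7sf2, Nsdhl and Scd1 (WT) change side. Modest negative ratios of other uncalled genes, such as Lss, turn as well.

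Idi1, the isomerase of isopentenyl diphosphate, had 39.9, 36.9 and 28.2 scaled CPM in KO polysomes and 6.0, 8.3 and 7.9 in KO subpolysomes (log2 2.24, SE 0.17). In WT it had 33.6, 31.8 and 41.2 scaled CPM in polysomes and 4.5, 4.8 and 5.9 in subpolysomes (log2 2.82, SE 0.18). The fractions did not overlap in either genotype. Mvd, which acts 1 step earlier, was the opposite, with 25.9, 31.2 and 37.9 scaled CPM in KO polysomes and 148, 146 and 158 scaled CPM in KO subpolysomes (log2 -2.25, SE 0.14). In WT it had 19.2, 16.3 and 19.3 scaled CPM in polysomes and 119.5, 129 and 155 in subpolysomes (log2 -2.88, SE 0.15). Mvk, the kinase before Pmvk, was lower in polysomes too (log2 -0.58 in KO and -1.02 in WT), though with library totals alone it turned to 0.30 in KO and lost the call in WT (log2 -0.19).

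The other sterol enzymes higher in polysomes in both genotypes were Acat2 (log2 1.76 in KO and 1.71 in WT), Ebp (1.23 and 1.06), Sc5d (1.11 and 1.38), Pmvk (1.08 and 0.82), Hsd17b7 (0.86 and 1.44), Msmo1 (0.83 and 1.07), Fdps (0.69 and 0.55), Sqle (0.65 and 0.71) and Cyp51 (0.44 and 0.40). Lss, which rose in KO in every kind of RNA, had a ratio near that of the typical mRNA (log2 -0.26 in KO and -0.17 in WT, adjusted p = 0.170 and 0.390). Dhcr7 passed as lower in polysomes in KO (log2 -0.31, and -0.13 in WT without passing), and Tm7sf2 and Nsdhl passed in WT (log2 -0.58 and -0.42, and -0.19 and -0.14 in KO without passing). The genotype effect on the ratio did not pass for these 3 genes (adjusted p = 0.961, 0.902 and 0.920), and the 3 called directions turn with library totals alone. Of the fatty acid genes, Acsl1 (log2 1.36 in KO and 0.61 in WT), Fads2 (0.99 and 1.08), Elovl1 (0.78 and 0.62), Acsl3 (0.71 and 0.64), Acsl4 (0.54 and 0.72), Elovl6 (0.50 and 0.79) and Scd2 (0.38 and 0.62) were higher in both. Acaca passed as higher in KO (log2 0.47), and Gpam in WT (log2 1.11). Fasn (log2 -0.50 in KO and -0.55 in WT) and Lpin1 (-0.61 and -0.48) were lower in both, and Scd1 passed as lower in WT (-0.58), each of which turns positive with library totals alone. That setting raises the ratio of genes in general, with a median over all genes of 0.895 in KO and 0.836 in WT, so modest negative ratios, uncalled ones such as that of Lss included, turn by construction and not gene by gene.

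Srebf1 had 26.3, 27.8 and 32.1 scaled CPM in KO polysomes and 69.5, 67.1 and 78.0 in KO subpolysomes (log2 -1.32, SE 0.12). In WT it had 24.1, 19.7 and 22.4 scaled CPM in polysomes and 63.7, 60.6 and 56.9 in subpolysomes (log2 -1.45, SE 0.12). It was lower in polysomes in all 3 libraries of each genotype, and stayed lower with library totals alone (log2 -0.43 in KO and -0.63 in WT). Srebf2 gave log2 -0.29 in KO (adjusted p = 0.0502) and -0.50 in WT (adjusted p = 0.00154), and in KO it passed as lower with DESeq2, with RLE or upper quartile factors, with the replicate block and in the fit on all 18 primary libraries. Insig1 gave log2 -0.04 in KO and 0.10 in WT without passing, and the directions of Srebf2 in both and of Insig1 in KO turn with library totals alone. Stard4 was higher in polysomes (log2 1.23 in KO and 0.98 in WT). Across the 39 genes the ratio fell with coding length, from 576 bases in Pmvk to 7512 in Fasn, with a Spearman rho of -0.48 in KO and -0.44 in WT, against -0.21 and -0.20 over 12324 genes; genes share libraries and these are descriptions only.

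In cancer organoids, sterol and fatty acid synthesis genes stood far above their level in primary organoids. The sterol enzymes summed to 4383 to 5267 CPM in the 4 cancer libraries and to 1334 to 1974 CPM in the 6 primary total RNA libraries, and the fatty acid genes to 5970 to 6600 CPM and 2664 to 3460 CPM. Of the 39, 31 were higher and 4 lower, beside 77.8% of 14305 genes called, 38.8% higher and 39% lower, and the median was 1.06 against -0.03 over all genes. At least 2-fold higher and called were 23 of 39, beside 23.4% of all genes. Libraries of the groups did not overlap for 28 of 39, beside 64.9%. Culture, batch and read processing cannot be told apart here, since Bowtie is named for the primary libraries alone.

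**Figure D4:**
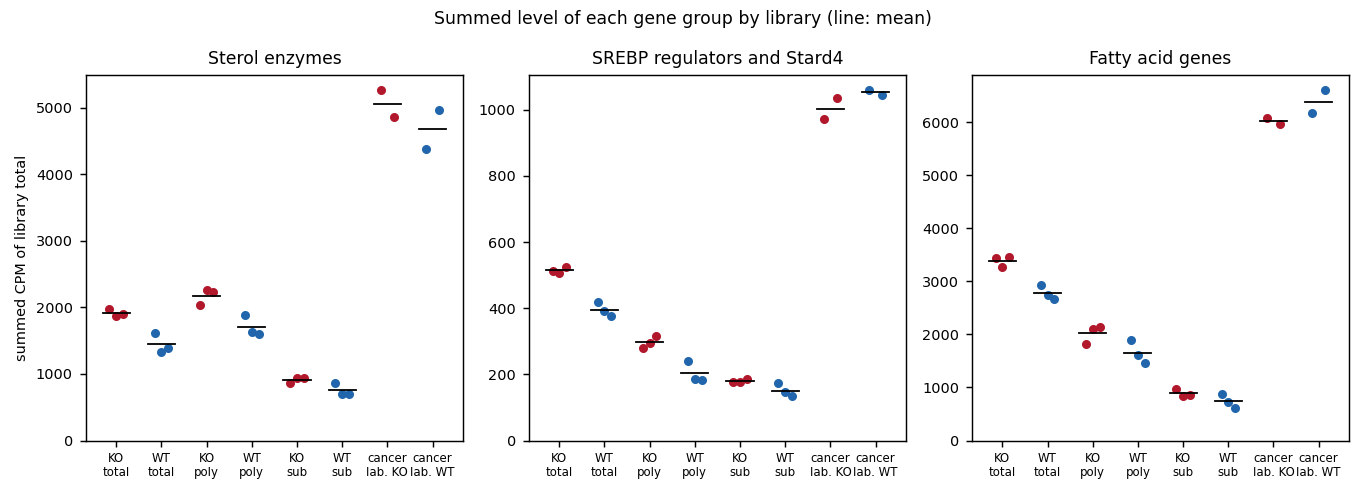
Summed CPM of the 18 sterol enzymes, the 4 regulators with Stard4 and the 17 fatty acid genes in each library (points, y axis from 0; lines are group means), with KO in red left of WT in blue for each kind of RNA and the cancer libraries as labelled. All 4 cancer libraries lie above all primary libraries in each panel.

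Idi1 stood out with 988 and 994 CPM in the cancer libraries labelled KO and 833 and 939 CPM in those labelled WT, against 17.9 to 23.5 CPM in primary KO total RNA and 14.4 to 22.3 CPM in primary WT total RNA. No library of either kind came near the other, and the fit gave a 50.3-fold higher level in cancer (log2 5.65, SE 0.15, adjusted p = 3.23e-08). Its paralog Idi2 stayed at or under 1.06 CPM in every library. Lss had 243 and 174 CPM in the cancer libraries labelled KO and 206 and 227 CPM in those labelled WT (log2 1.86, SE 0.10, adjusted p = 6.41e-07). Hsd17b7 had 166 and 158 CPM in those labelled KO and 226 and 166 CPM in those labelled WT, above all 6 primary libraries (log2 1.67, SE 0.08, adjusted p = 4.87e-07). Of the other sterol enzymes, Cyp51 (log2 1.82), Hmgcs1 (1.80), Sqle (1.69), Dhcr7 (1.40), Msmo1 (1.23), Ebp (1.10), Acat2 (1.06), Sc5d (1.05), Fdps (1.02), Fdft1 (0.84), Mvk (0.67), Mvd (0.50) and Nsdhl (0.31) were higher. Tm7sf2 was lower (log2 -0.43, adjusted p = 0.00855), a call that was lost when the labelled genotypes were left out of the fit (log2 -0.47, adjusted p = 0.115), and Pmvk did not pass (log2 0.09).

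Insig1 had 140.2 and 138 CPM in the cancer libraries labelled KO and 191 and 134 CPM in those labelled WT (log2 1.91 over primary, SE 0.09, adjusted p = 3.65e-07). Srebf2 had 523 and 552 CPM in those labelled KO and 494 and 572 CPM in those labelled WT (log2 1.09, SE 0.06, adjusted p = 7.13e-07). Srebf1 had 153 and 147 CPM in those labelled KO and 159 and 181 CPM in those labelled WT (log2 0.76, SE 0.06, adjusted p = 4.07e-06). Stard4 was higher by log2 2.02. All 4 genes were above every primary total RNA library in each cancer library.

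The carboxylases of the fatty acid arm parted. Acaca had 258 and 321 CPM in the cancer libraries labelled KO and 275 and 277 CPM in those labelled WT, against 45.1 to 55.2 CPM in primary total RNA (log2 2.54, SE 0.07, adjusted p = 4.79e-08). Acacb had 0.227 and 0.361 CPM in those labelled KO and 0.730 and 0.268 CPM in those labelled WT, below every primary library (log2 -2.07, SE 0.34, adjusted p = 0.000637). Gpam (log2 1.67), Elovl6 (1.53), Scd1 (1.40), Scd2 (1.39), Acsl4 (1.09), Fads2 (1.06), Elovl5 (1.05), Fasn (0.99), Acly (0.60) and Acsl1 (0.32) were higher, and Acsl3 (-0.80) and Lpin1 (-0.55) lower. Acsl4, lower in KO than in WT primary organoids, had 168.5 and 150.3 CPM in the cancer libraries labelled KO and 198 and 149.7 CPM in those labelled WT. Elovl1, Acsl5 and Fads1 did not pass, with log2 values from -0.08 to 0.28. Nsdhl and Acsl1 lost the call when single libraries were left out and under several scalings and filters.

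**Figure D5:**
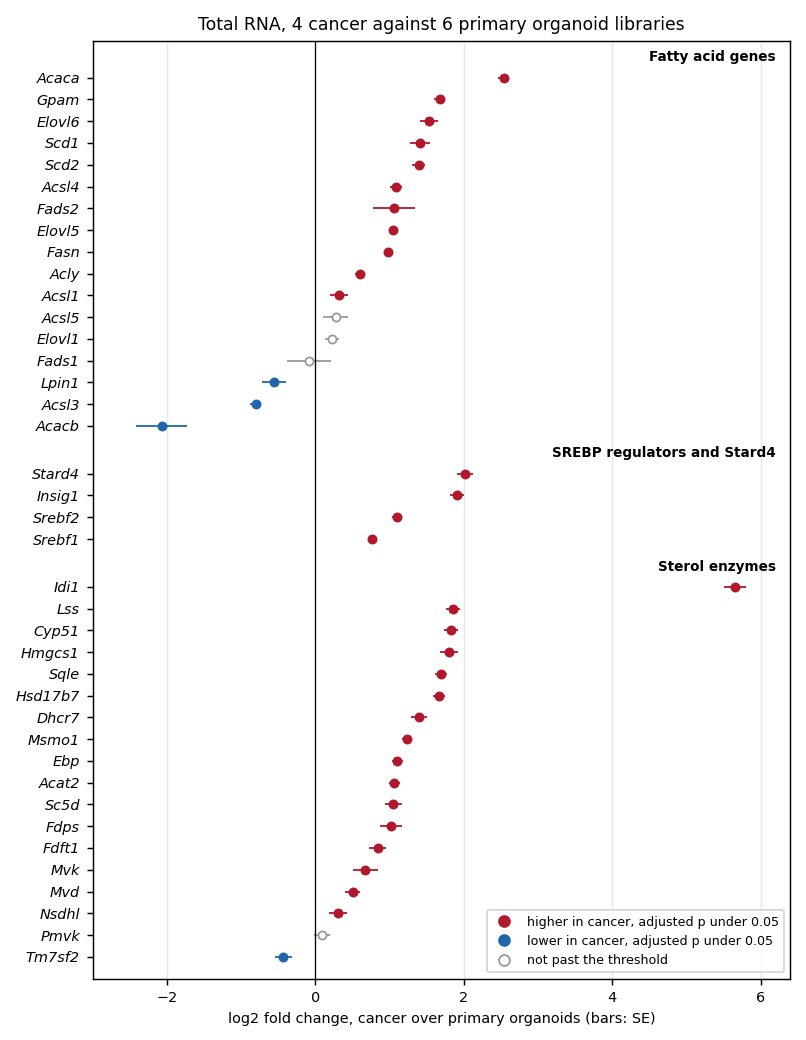
log2 fold change of 4 cancer organoid over 6 primary organoid total RNA libraries for the 39 genes (points, with SE as bars), red where higher and blue where lower at an adjusted p under 0.05. Idi1 lies at 5.65, and Acacb, at -2.07, is the lowest.

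Urothelial markers changed beside these genes. Luminal markers summed to 139 to 275 CPM in cancer libraries and to 2281 to 3501 CPM in primary total RNA, with 11 of 12 lower, and Upk2, Upk3a and Upk3b were at 0 counts in all 4 cancer libraries. All 10 proliferation markers were higher (median log2 3.55), summing to 3971 to 4307 CPM in cancer and 173 to 557 CPM in primary libraries. Of 8 basal markers, 5 were higher and 1 lower. Their part in the lipid gene result was not tested. Among neighbouring lists, 6 of 8 genes that carry and cut SREBP were higher, led by Erlin1 (log2 2.40), and 1, Erlin2, was lower (log2 -0.27). Sterol uptake, storage and efflux had 3 of 13 higher and 7 lower, with Abca1 lowest (log2 -2.85), and fatty acid oxidation 5 of 15 higher and 9 lower, with Acads lowest (log2 -3.71). Over all genes 38.8% were higher and 39% lower in this comparison, and many of these list counts lie near that share. Citrate and NADPH supply had 2 of 7 higher and 3 lower, glycerolipid synthesis 4 of 13 higher and 6 lower, the isoprenoid branch 6 of 10 higher and 3 lower, other elongases, desaturases and partners 5 of 10 higher and 1 lower, and lipid droplets and uptake 2 of 9 higher and 6 lower. Immune markers summed to 7.96 to 11.7 CPM in the cancer libraries and 67.8 to 107 CPM in primary total RNA; Ptprc, at 0.115 to 0.848 CPM in cancer libraries, was at 0 counts in primary total RNA.

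Between the cancer libraries labelled KO and those labelled WT, 0 of 39 genes passed, beside 0% of 12681 (edgeR; 0 of the 39 and 96 of all genes at an unadjusted p under 0.05, and DESeq2 called 10 genes but 0 of the 39). The log2 values ranged from -0.70 to 0.36, and Insig1, Srebf1 and Srebf2 gave -0.18, -0.14 and 0.06. The libraries did not overlap for 6 of 39 genes, 3 higher and 3 lower as labelled, beside 21% of all genes. Arid1a reads go against 2 of the 4 labels in this comparison. The KO effect of the cancer labels minus that of the primary organoids passed for 3 of 39, all negative, beside 3.13% of 14305 genes called and 1.6% called as lower: Lss (log2 -0.96), Tm7sf2 (-1.22) and Acat2 (-0.82). The count was 0 without any 1 of KO total 1, 2 or 3 or WT total 2 or 3, and 1 without WT total 1. Calls over all genes fell as well, from 219 higher and 229 lower of 14305. They were 40 and 32 of 14236 without WT total 3, and 72 and 84 of 14217 without KO total 2. Without WT total 1 they were 108 and 175 of 14239. Leaving out a cancer library leaves 1 library in its labelled group, and counts of those fits are not given. Insig1, Srebf1 and Srebf2 gave -0.52, -0.43 and -0.27 and did not pass (adjusted p = 0.165, 0.0855 and 0.259).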

How the data were processed

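Total RNA, polysome and subpolysome RNA of primary organoids and total RNA of cancer organoids were sequenced. The deposited values are raw counts of reads per gene symbol, with no normalization; per the submitters' processing notes they were made with HTSeq on mm10, with Bowtie named for the primary libraries alone. The sources used here give no version, annotation or strand setting, so overlapping and antisense genes and near-identical copies may share reads. Per the labels' protocols, RNA was column purified with DNase and libraries followed a standard Illumina preparation.

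Groups and replicate numbers came from the labels. The 39 genes and the other lists were chosen with earlier results of these data known. The main test was edgeR 4.0.16 under R 4.3.3 (TMM, filterByExpr, glmQLFit, glmQLFTest, Benjamini-Hochberg over all genes, threshold 0.05); SE is the size of the log2 fold change divided by the root of F. The threshold, tests and alternatives were applied to whole tables, which were checked on simulated counts. Alternatives were DESeq2 1.42.0, other scalings and filters, other sets of libraries, a replicate block and leaving out each library. Named genes were all members past the threshold, with library values for the 4 smallest p-values of each arm in total RNA, the regulators, Stard4 and members that fell, and up to 2 per direction from other lists; Acacb, Idi1, Mvd, Acaca and Scd1 were given further values after their values were seen.

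Same-numbered KO and WT polysome libraries deviated together (r = 0.186, 0.197 and 0.249 over 13066 genes). The replicate block pairs them, and the main fits did not. Same-numbered polysome and subpolysome libraries deviated together more weakly (r = 0.0549 to 0.101 in KO and 0.0608 to 0.155 in WT). Same-numbered polysome and total RNA libraries gave r = 0.0301 to 0.136 in KO and 0.0595 to 0.179 in WT. The main gradient and ratio fits left these unpaired as well. Between KO and WT total RNA, r ran from -0.0656 to 0.145. Pairs of libraries of 1 group differed by 11.9 times sampling noise or more (chi-square over degrees of freedom), so none was a copy. Total counts were 66227600 to 74605489 for total RNA, 64911189 to 76594655 for polysomes, 39245248 to 51628570 for subpolysomes and 48429672 to 55431426 for cancer, and the ribosomal Rn45s took 0.191% to 5.59%. Coordinates and promoters are RefSeq on GRCm38.p6, exon and coding lengths GENCODE M21.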

Additional observations from a re-analysis of the deposited data

Results flagged for a closer look

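The effect of the KO label differed between cancer and primary organoids for 3 of the 39 genes, beside 3.13% of 14305 genes. This was the interaction test over 10 total RNA libraries (edgeR), and all 3 calls were lost with the replicate number as a block. The difference, cancer labels minus primary, was log2 -0.96 for Lss (SE 0.20, adjusted p = 0.0459), -1.22 for Tm7sf2 (SE 0.23, adjusted p = 0.0367) and -0.82 for Acat2 (SE 0.16, adjusted p = 0.0376). In the primary organoids all 3 were higher in KO in 3 of 3 libraries, by log2 0.93, 0.84 and 0.86. Between the libraries labelled KO and WT in cancer they gave log2 -0.01, -0.36 and 0.07, and 2 of those 4 libraries carry Arid1a reads that go against their label. All 3 calls are lost without any single one of KO total 1, 2 or 3 or WT total 2 or 3, those of Lss and Tm7sf2 without WT total 1, those of Tm7sf2 and Acat2 without cancer KO 2, and that of Acat2 without cancer WT 1.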

How the results depend on the processing

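Total RNA held 29 called genes and 19 in the fit on all 18 primary libraries, in which calls over all genes fell as well. Leaving out 1 library gave 26 to 32. Polysome counts ran from 12 to 21 (21 with all libraries), subpolysome counts from 10 to 17 (18), KO gradient counts from 22 to 25 (25), WT gradient counts from 24 to 29 (28), cancer against primary from 33 to 37 (35), and both genotype effects on gradient ratios and the cancer label comparison stayed at 0. The difference of the KO effect, 3 genes, became 8 with DESeq2, 1 with no filter, 0 with the replicate block, and 0 or 1 when 1 primary library was left out. Calls over all genes moved too. They were 219 higher and 229 lower of 14305 in the main fit, 824 and 923 with DESeq2, and 34 and 26 with the block. With no filter they were 181 and 159 of 18684. Calls lost without a single library were of Hmgcs1, Acly and Acsl1 in total RNA, of Mvk, Fdps, Cyp51, Nsdhl, Sc5d, Srebf1, Srebf2, Elovl1 and Lpin1 in polysomes, and of Hmgcs1, Fdps, Cyp51, Insig1, Fasn, Scd2, Acsl4 and Lpin1 in subpolysomes; the cause was not tested. In the gradient Dhcr7, Acaca and Scd2 (KO) and Cyp51, Nsdhl, Acsl1 and Lpin1 (WT) were lost in the same way. In subpolysomes DESeq2 lost Insig1 and no filter lost Fdps, and in polysomes no filter lost Srebf1.

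Library totals alone, added after the scaling factors of the fractions were seen, moved the median polysome to subpolysome ratio of all genes to 0.895 in KO and 0.836 in WT and the share of called genes that were higher to 85.9% and 83.1%, against 51.4% and 51.6% with TMM. Under it these log2 ratios reversed among called genes and the regulators Insig1, Srebf1 and Srebf2, other uncalled genes not being listed. In KO they were Mvk 0.30, Dhcr7 0.57, Insig1 0.85, Srebf2 0.60, Fasn 0.38 and Lpin1 0.28. In WT they were Tm7sf2 0.24, Nsdhl 0.41, Srebf2 0.33, Fasn 0.28, Scd1 0.25 and Lpin1 0.35. That alternative differs only by leaving out the TMM factors. Under upper quartile scaling the median of all genes stood at -0.139 in the KO gradient, -0.127 in the WT gradient and -0.163 for cancer against primary, against 0.0102, 0.0094 and -0.0255 with TMM.

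With the replicate block, counts were 30 in total RNA, 23 in polysomes, 21 in subpolysomes, 26 and 29 in the KO and WT gradients and 33 for cancer against primary, and 0 for the cancer labels, straight or crossed, the crossing having been added because same-numbered cancer libraries deviated oppositely. The block changed no other polysome call than those of Insig1 and Fasn. Over all genes it gave 2527 higher and 2503 lower of 13066 in polysomes, against 1950 and 1807 in the main fit. In subpolysomes it gave 1588 and 1651 of 12645, against 1391 in each direction. In total RNA it gave 3532 and 3405 of 13198, against 3557 and 3468, and for cancer against primary 5032 and 5116 of 14305, against 5553 and 5577. No alternative changed the depth, so its effect was not tested.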

Other observations

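Fads1 and Fads2 varied widely among the cancer libraries. Fads1 had 70.9 and 177 CPM in the libraries labelled KO 1 and KO 2 and 215 and 89.1 CPM in those labelled WT 1 and WT 2. Fads2 had 112 and 249 CPM in those labelled KO 1 and KO 2 and 329 and 128 CPM in those labelled WT 1 and WT 2. Arid1a in the same order had 201 and 64.1 CPM, and 79.2 and 228 CPM. As labelled, KO against WT gave log2 -0.24 for Fads1 and -0.29 for Fads2 without passing, and no other grouping of these libraries was tested.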
